A study of Mus musculus with 8 samples.

Results

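The let-7 family is a group of related microRNAs (miRNAs), short RNAs that guide silencing complexes to messenger RNAs. Its members were taken as every row of the deposited count tables whose gene symbol holds let-7 or let7. This gave 11 of the 5518 rows of each table, all of them hairpin genes, and summing gene copies with the same letter gave 8 members: let-7a, b, c, d, e, f, g and i. The study compared targeted enrichment sequencing of small RNAs (TEsR) with standard TruSeq small RNA sequencing in mouse cells, in 8 libraries. The first group was mouse embryonic stem (MES) cells sequenced by TEsR on a MiSeq (2 libraries), grown without feeder cells in medium with leukaemia inhibitory factor. The second was mouse embryonic fibroblasts (MEFs) sequenced by TEsR on a MiSeq (4 libraries, from 2 induced and 2 uninduced samples). The third was induced MEFs sequenced by TruSeq on a HiSeq (2 libraries). All MEFs carried a conditional knockout allele of the telomere protein TRF2 and Rosa26-CreERT2, a Cre recombinase that 4-hydroxytamoxifen switches on, and induced cells received 0.6 µM of the drug for 48 hours. Neither a TRF2 allele nor a drug is given for the MES cells. The 4 TEsR columns of MEFs are named mm S1, mm S2, pm S1 and pm S2. No label gives the meaning of mm and pm, so induced and uninduced MEFs were not compared, and the spread of this group includes any effect of induction. The 2 TruSeq columns are named by their index, ATCACG for library 1 and CGATGT for library 2, and the table they stand in is named a control although the sample titles say induced.

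As background, let-7 miRNAs were found as regulators of developmental timing in the nematode worm and are conserved in mammals. In embryonic stem cells the RNA-binding protein LIN28 blocks the processing of their hairpin precursors, and mature let-7 accumulates as cells differentiate. Known targets include the messages of Ras and Myc proteins, of the chromatin protein HMGA2 and of LIN28 itself. A miRNA finds its targets mainly through its seed, bases 2 to 8 from the 5′ end, and members with the same seed share most predicted targets.

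All 11 rows were matched to hairpins in RefSeq (GRCm38.p6), and the 8 mature forms from the 5′ arm are shown to let the members be told apart, with the seed in capitals:
let-7a: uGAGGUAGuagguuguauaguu
let-7b: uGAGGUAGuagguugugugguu
let-7c: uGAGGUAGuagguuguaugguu
let-7d: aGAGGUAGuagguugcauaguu
let-7e: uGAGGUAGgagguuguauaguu
let-7f: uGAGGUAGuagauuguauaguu
let-7g: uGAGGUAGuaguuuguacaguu
let-7i: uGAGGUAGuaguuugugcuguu
All 8 are 22 bases long and hold the seed GAGGUAG, which 11 of 1674 distinct mature mouse sequences in the same table hold at bases 2 to 8 (0.657%). The other 3 are let-7k, miR-98-5p and miR-1961. The differences between members lie outside the seed. Counted from 1 at the 5′ end and written with the base of let-7a first, let-7c differs by A19G, let-7e by U9G and let-7f by G12A. The member let-7b differs by A17G and A19G, let-7d by U1A and U16C, let-7g by G12U and U18C, and let-7i by G12U, A17G, U18C and A19U. The first 16 bases are the same in let-7g and let-7i and in no other member. The mature forms of let-7a, let-7c and let-7f each occur in 2 hairpins, so a read of the mature form alone could come from either gene, while each of the other 5 occurs in 1.

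The hairpins of let-7i, let-7g and let-7c-2 carry the results below and are shown with both mature arms in capitals, let-7i from chr10:122985640-122985724 (minus strand), let-7g from chr9:106178840-106178927 (plus strand) and let-7c-2 from chr15:85706603-85706697 (plus strand), all in GRCm38.p6, the build that is also called mm10:
let-7i hairpin: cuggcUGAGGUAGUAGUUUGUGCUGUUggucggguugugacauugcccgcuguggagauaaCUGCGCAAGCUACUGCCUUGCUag
let-7g hairpin: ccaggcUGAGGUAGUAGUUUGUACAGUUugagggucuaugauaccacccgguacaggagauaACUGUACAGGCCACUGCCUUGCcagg
let-7c-2 hairpin: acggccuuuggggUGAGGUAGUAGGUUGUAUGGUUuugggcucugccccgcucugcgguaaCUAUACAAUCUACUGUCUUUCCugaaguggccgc
GENCODE M21 places Mirlet7i in an exon of the transcribed pseudogene D630033A02Rik, Mirlet7g in an intron of the protein-coding gene Wdr82, and Mirlet7c-2 in an exon of the non-coding transcript Lncppara. Counts on such a row can come from the mature forms or from the precursor, which the tables do not separate.

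The libraries held 2676776 to 2785150 counts in MES cells, 3221641 to 3768668 in MEFs by TEsR and 8442960 to 8961221 in MEFs by TruSeq. Rows that are miRNAs and overlap no snoRNA or rRNA row (2166 rows, let-7 included) took 0.242% of the counts in both MES libraries, 1.52% to 7.39% in MEFs by TEsR, and 0.0603% and 0.0399% in MEFs by TruSeq. Because the miRNA share of a library differed this much between groups, let-7 values are given both in CPM, the count per 1000000 counts of the library, and as a percent of miRNA counts. Marker miRNAs set the cell types apart: the 12 embryonic stem cell markers in the tables (the miR-290 and miR-302 groups) were all detected in both MES libraries, at 19.7% and 21.3% of miRNA counts, and summed to between 0 and 5 counts in each of the 6 MEF libraries. Of 13 fibroblast and mesenchyme markers, 5 to 10 had a count in each library, and their sum was 5.57% and 5.91% of miRNA counts in MES cells, 25.6% to 30.8% in MEFs by TEsR, and 15.4% and 15.7% in MEFs by TruSeq. This sum can rest on few rows: in mm S1 Mir21a alone held 29.3% of miRNA counts, against 30.6% for all 13. In MES replicate 1 only 1 of the 13 reached 10 counts. The 6 epithelial markers had 270 and 243 counts in MES cells, between 7 and 19 in MEFs by TEsR and 0 in MEFs by TruSeq, muscle markers had at most 17 counts in any library, and blood and neural markers were at 0 in all 8.

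The let-7 family as a whole was rare in MES cells. Its 8 members together had 9 and 3 counts in the MES libraries, or 3.23 CPM (exact 95% binomial interval 1.48 to 6.13) in replicate 1 and 1.12 CPM (0.231 to 3.28) in replicate 2. In MEFs by TEsR the sum was 926 counts in mm S1, 316 in mm S2, 812 in pm S1 and 394 in pm S2, or 248, 83.8, 230.0 and 122 CPM. In MEFs by TruSeq it was 248 counts in each library, or 27.7 CPM in library 1 and 29.4 CPM in library 2. No group overlapped another on this scale: the lowest MEF TEsR library lay above both TruSeq libraries, and these lay above both MES libraries. Group means were 2.18 ± 1.49 CPM in MES cells (SD, n = 2), 171 ± 80.4 CPM in MEFs by TEsR (SD, n = 4) and 28.5 ± 1.2 CPM in MEFs by TruSeq (SD, n = 2). Intervals and limits here cover counting error only, since no molecular identifiers are described.

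Among miRNA counts alone the order of the groups changed. The family held 0.134% (0.0612 to 0.254) and 0.0463% (0.00955 to 0.135) of miRNA counts in the MES libraries. It held 0.445%, 0.552%, 0.311% and 0.257% in the MEF TEsR libraries mm S1, mm S2, pm S1 and pm S2. In the TruSeq libraries it held 4.59% in library 1 and 7.37% in library 2. Means were 0.09 ± 0.0618% in MES cells (n = 2), 0.391 ± 0.133% in MEFs by TEsR (n = 4) and 5.98 ± 1.96% in MEFs by TruSeq (n = 2, all SD). MES cells were lowest on both scales, whereas the 2 MEF groups changed places: the TEsR mean was 6.0 times the TruSeq mean in CPM, and 15.3-fold lower than it among miRNA counts. The most abundant miRNA row was Mir106b in both MES libraries (28.5% and 27.6% of miRNA counts), Mir21a, Mir106b or Mir29b-1 in MEFs by TEsR (29.3% to 34.4%) and Mir140 in MEFs by TruSeq (17.7% and 12.2%). How far the leading rows of each method set the share of let-7 was not tested beyond leaving out the top row of each library, which moved the MEF TEsR mean to 0.57%.

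**Figure D1:**
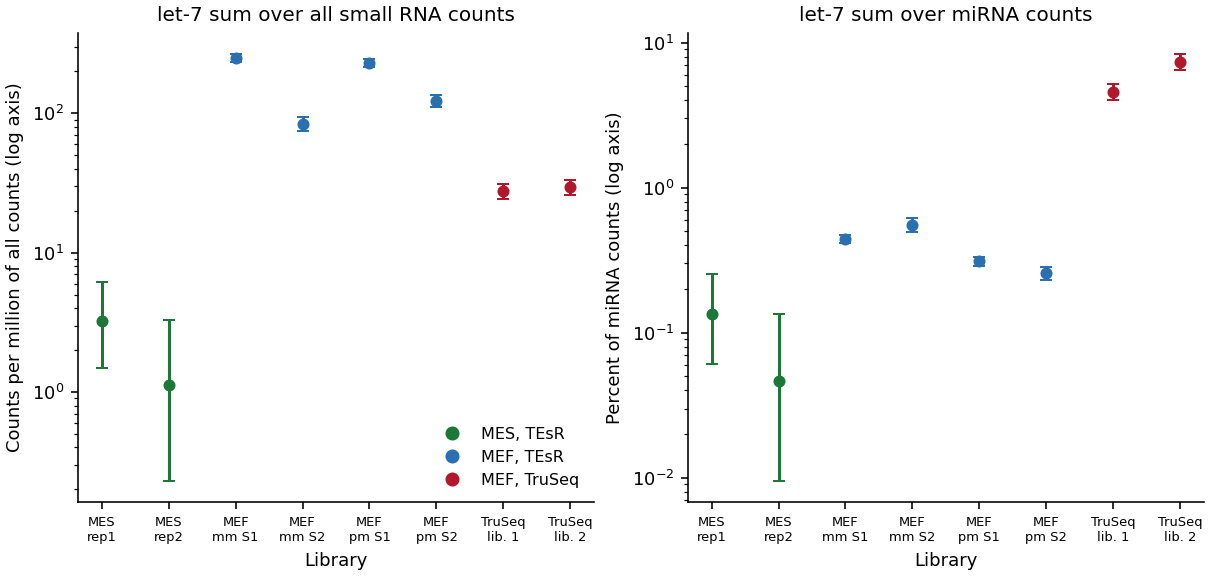
Sum of the 8 let-7 members in each of the 8 libraries, in CPM (left) and as a percent of miRNA counts (right), both on log axes, with exact 95% binomial intervals as bars. The 4 MEF TEsR libraries lie above both TruSeq libraries on the left (83.8 to 248 against 27.7 and 29.4 CPM) and below them on the right (0.257% to 0.552% against 4.59% and 7.37%), and MES libraries are lowest in both.

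The members let-7i and let-7g, the pair with the same first 16 bases, made up most of the family in MEFs by TEsR. The let-7i gene gave 3 and 2 counts in MES cells, 709, 233, 616 and 265 counts in MEFs by TEsR (mm S1, mm S2, pm S1, pm S2), and 43 and 66 counts in MEFs by TruSeq (libraries 1 and 2). This was 1.08 and 0.747 CPM in MES cells, 190.0, 61.8, 174 and 82.3 CPM in MEFs by TEsR, and 4.8 and 7.82 CPM in MEFs by TruSeq. The let-7g gene gave 2 and 1 counts in MES cells, 160, 55, 127 and 80 in MEFs by TEsR, and 7 and 1 in MEFs by TruSeq. For both members every MEF TEsR library was above every other library in CPM, and the level of let-7g in TruSeq libraries (0.781 and 0.118 CPM) overlapped that in MES cells (0.718 and 0.374 CPM). How many other miRNA rows have all MEF TEsR libraries highest was not counted. The ratio of let-7i to let-7g counts was 4.43, 4.24, 4.85 and 3.31 in the 4 MEF TEsR libraries, a narrow range although the let-7 counts of these libraries ran from 316 to 926. It was 1.5 and 2.0 in MES cells, on 3 or fewer counts of each member. In TruSeq library 1 it was 6.14, and in library 2 it was 66 on a single let-7g count.

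The members with 1 gene copy that remain, let-7b, let-7d and let-7e, had at most 39 counts in any library. In MES cells each had 1 count in replicate 1 and 0 in replicate 2. In MEFs by TEsR let-7b had 16, 8, 39 and 3 counts, let-7d 21, 7, 9 and 2, and let-7e 5, 3, 6 and 2, in the order mm S1, mm S2, pm S1, pm S2. In MEFs by TruSeq let-7b had 34 and 22 counts, let-7d 19 and 20, and let-7e 14 and 20. On the CPM scale, the TruSeq values of all 3 lay within or just above the TEsR range in MEFs: let-7b averaged 4.59 ± 4.51 CPM by TEsR and 3.2 ± 0.84 CPM by TruSeq, let-7d 2.66 ± 2.13 and 2.24 ± 0.176 CPM, and let-7e 1.11 ± 0.495 and 1.97 ± 0.57 CPM (SD, n = 4 by TEsR and 2 by TruSeq). As a percent of miRNA counts, their means in MEFs were lower by TEsR than by TruSeq. They were 0.00964% and 0.641% for let-7b, 0.00677% and 0.473% for let-7d, and 0.00281% and 0.427% for let-7e.

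The members with 2 gene copies, let-7a, let-7c and let-7f, were absent or nearly absent in MES cells. In MES cells let-7a had 1 and 0 counts, and let-7c and let-7f had none, which allows up to 1.08 and 1.12 CPM in the 2 libraries. In MEFs by TEsR let-7a had 2, 1, 0 and 40 counts, let-7c 0, 5, 0 and 0, and let-7f 13, 4, 15 and 2. In MEFs by TruSeq let-7a had 36 counts in each library, let-7c 40 and 47, and let-7f 55 and 36. One library held 40 of the 43 let-7a counts of the MEF TEsR group (pm S2) and another held all 5 let-7c counts (mm S2), so group means of these 2 members rest on single libraries. The TruSeq libraries were close to each other, at 4.02 and 4.26 CPM for let-7a, 4.46 and 5.57 CPM for let-7c, and 6.14 and 4.26 CPM for let-7f.

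**Figure D2:**
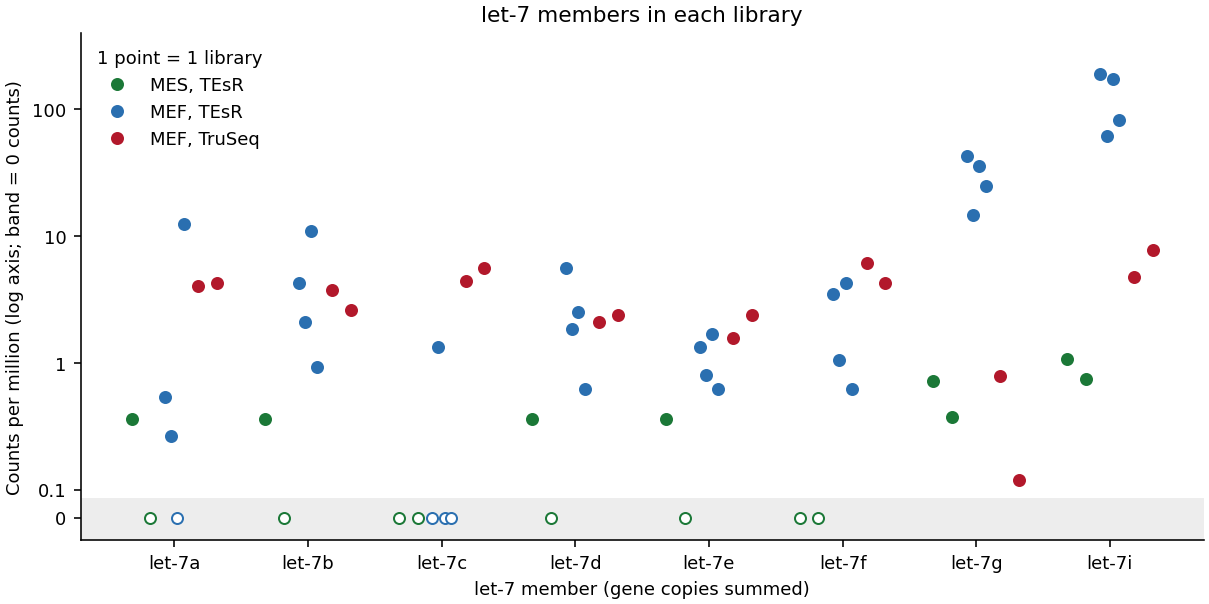
CPM (log axis) of each let-7 member, with 1 point per library and open points in the grey band for 0 counts; MES cells are left of MEFs by TEsR, which are left of MEFs by TruSeq. For let-7g and let-7i all 4 MEF TEsR points lie above all other points, at 14.6 to 42.9 and 61.8 to 190.0 CPM. How many other miRNA rows show this was not counted. By a different measure, calls in edgeR fits over all rows, 55.4% of miRNA rows were lower in MES cells than in MEFs by TEsR. By TEsR over TruSeq 79.8% were higher.

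The order of the members differed between the methods. Rows are 83 to 103 bases long, and levels were compared per 100 bases of the row. In MEFs by TEsR let-7i came first (150.0 ± 75.8 CPM per 100 bases) and let-7g second (33.6 ± 14.1), and their ranges over libraries, 72.7 to 224 and 16.6 to 48.8, did not overlap. Below them let-7b (5.4 ± 5.3), let-7a (3.45 ± 6.33), let-7f (2.69 ± 2.06), let-7d (2.59 ± 2.07) and let-7e (1.2 ± 0.532) each overlapped the next, and let-7c was last (0.353 ± 0.706, SD, n = 4), overlapping let-7e. The lowest let-7g value lay above the highest of let-7b, 13.0. In MEFs by TruSeq let-7i was again first (7.42 ± 2.51) but overlapped let-7f (5.88 ± 1.51) and let-7c (5.29 ± 0.82), and let-7g was last of 8 (0.511 ± 0.533, SD, n = 2). The highest let-7g value by TruSeq, 0.888, lay below the lowest value of its neighbour let-7e, 1.68. In MES cells let-7i and let-7g came first as well, on 5 and 3 counts in all, and no order can be read below them.

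The first comparison asks how let-7 differs between MES cells and MEFs with the library method kept the same. The members let-7i and let-7g were lower in MES cells and passed the test under every alternative run. With edgeR's quasi-likelihood test over all small RNA rows, the log2 fold change of let-7i in MES cells over MEFs was -6.24 ± 0.68 (SE, adjusted p = 1.4e-05) and that of let-7g -4.87 ± 0.70 (adjusted p = 0.000104). Another 2 members with few counts also passed: let-7b, at -3.55 ± 1.38 (adjusted p = 0.0372), and let-7f, at -5.72 ± 2.05 (adjusted p = 0.0283). As let-7f was at 0 in both MES libraries its fitted value is no bound, and against a floor of 3 counts per MES library its mean was at least 2.14-fold lower in MES cells. Thus 4 of the 8 members were tested and all 4 were lower, in a fit that called 119 of 274 rows higher (43.4%) and 88 lower (32.1%), and, among its 121 miRNA rows, 24 higher (19.8%) and 67 lower (55.4%). No member reached 10 counts in a MES library, so a row could enter the test only through its MEF counts and the 4 of 4 supports nothing by itself. The median log2 fold change in this fit was 0.45 over all rows and -2.29 over miRNA rows.

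The calls of let-7b and let-7f were not stable. Both missed the threshold with DESeq2 (adjusted p = 0.0569 for let-7b and 0.0582 for let-7f) and without either MES library, and neither was tested without mm S1 or without pm S1, since too few counts were left, which leaves 2 members called lower in these 5 settings. The value of let-7b was -6.75 without MES replicate 1 (adjusted p = 0.0738) and -2.67 without replicate 2 (adjusted p = 0.245), and that of let-7g was -5.5 without replicate 1, still called (all with edgeR). With no filter on low counts all 8 members were tested, and the same 4 were lower: let-7b, let-7f, let-7g and let-7i. In that fit 159 of 609 rows were higher (26.1%) and 95 lower (15.6%), and of its 325 miRNA rows 39 were higher and 74 lower (22.8%). The median log2 fold change was -3.54 over the 8 members, or -3.53 over the 6 with a count in both groups, against 0.35 over all rows and -1.44 over miRNA rows. The other 4 had log2 fold changes of -3.37 ± 1.54 for let-7a (adjusted p = 0.071), -3.39 ± 2.79 for let-7c (0.324), -3.02 ± 1.46 for let-7d (0.0867) and -1.78 ± 1.62 for let-7e (0.381), with edgeR's test and adjusted over all rows.

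When miRNA rows alone were fitted and scaled on their own, 41 of 136 rows were higher in MES cells (30.1%) and 35 lower (25.7%), and 5 members were tested. Of these let-7i (-4.25 ± 0.40, adjusted p = 6.82e-05) and let-7g (-2.92 ± 0.52, adjusted p = 0.00181) were lower. The values of let-7a (-1.54 ± 2.88), let-7b (-1.67 ± 1.37) and let-7d (-1.03 ± 1.44) did not pass (adjusted p = 0.335 to 0.689). For scale, 1 count in MES replicate 1 was 0.0149% of its 6730 miRNA counts, as much as the highest MEF TEsR value of let-7b (0.0149% in pm S1) and above the highest of let-7d (0.0122%), let-7e (0.00524%) and let-7f (0.00699%). For these 4 members a lower level in MES cells among miRNA counts was not detectable at this depth. The highest MEF TEsR value of let-7a, 0.0261% in pm S2, lay above that level. By pooled counts, let-7i was 140.0-fold lower in MES cells in CPM (exact 95% interval 59.7 to 431) and 7.08-fold lower among miRNA counts (3.03 to 21.8). The same for let-7g was 53.9-fold lower (18.3 to 262) and 2.73-fold lower (0.929 to 13.3), the second with an interval that reaches equality. In bulk RNA, fewer cells with a miRNA and less of it per cell cannot be told apart.

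The second comparison asks how the library method bears on let-7 in MEFs. Method, instrument, depth and, for an unknown part of the TEsR libraries, induction change together here and cannot be told apart. The members let-7i and let-7g were far higher by TEsR, let-7c was lower, and the rest did not pass the test. The log2 fold change of TEsR over TruSeq was 6.45 ± 0.93 for let-7g (adjusted p = 2.86e-05), 4.90 ± 0.62 for let-7i (adjusted p = 9.64e-06) and -3.07 ± 1.12 for let-7c (adjusted p = 0.0217) with edgeR's quasi-likelihood test. In this test let-7g, with 7 and 1 counts by TruSeq, could enter only through its TEsR counts, and let-7c, with 0, 5, 0 and 0 counts by TEsR, only through its TruSeq counts, so the direction of a called value was fixed by the filter for both. The member let-7i had over 10 counts in every MEF library of both methods. Without TruSeq library 1 the value of let-7g was 8.49 and without library 2 it was 5.44, called in both. Values that did not pass were 0.93 ± 0.79 for let-7b (adjusted p = 0.275), 0.43 ± 1.47 for let-7a (0.782) and -0.67 ± 0.71 for let-7f (0.379), and let-7d and let-7e did not enter the test. So 2 of 6 tested members were higher and 1 lower, in a fit that called 114 of 352 rows higher (32.4%) and 195 lower (55.4%). Among its 114 miRNA rows 91 were higher by TEsR (79.8%) and 10 lower (8.77%), with a median log2 fold change of 5.82, against -2.34 over all rows. The value of let-7i (4.90) lay below this miRNA median and that of let-7g (6.45) above it. The median of all rows was -1.71 with DESeq2 and -2.92 by library size alone, so each value is to be read against it.

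The lower value of let-7c lost its call with DESeq2 (-2.39, adjusted p = 0.288), with no filter on low counts (-2.87, adjusted p = 0.0829), and without either TruSeq library (adjusted p = 0.168 and 0.21). Without mm S2, which held all its TEsR counts, its TEsR counts were all 0, and it was called at a fitted value of -7.64 (adjusted p = 0.0011), which is no bound. The value of let-7a rested on pm S2: without that library its log2 fold change was -3.12 ± 0.80 (adjusted p = 0.000346), the opposite sign, and let-7b was then called higher (1.43 ± 0.68, adjusted p = 0.045). Without pm S2 let-7a had 2, 1 and 0 counts by TEsR and could enter only through its TruSeq counts. The direction of its call was thus fixed by the filter.

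Fitted on miRNA rows alone, the second comparison gave lower values for all 6 members tested in both fits, and those of let-7a and let-7b changed sign. In that fit 50 of 136 rows were higher by TEsR (36.8%) and 42 lower (30.9%), the median of all rows was 0.39, and all 8 members were tested. One was higher, let-7g (2.41 ± 0.61, adjusted p = 0.00625), and 5 were lower: let-7c (-7.07 ± 1.2, adjusted p = 0.000719), let-7f (-4.83 ± 0.50, adjusted p = 5.24e-05), let-7e (-4.41 ± 0.54, adjusted p = 0.000126), let-7d (-3.37 ± 0.65, adjusted p = 0.00142) and let-7b (-3.22 ± 0.62, adjusted p = 0.00142). Here let-7c, let-7e and let-7f were too low by TEsR to pass the filter and entered only through their TruSeq counts. The direction of their calls was thus fixed by the filter. The values of let-7i (0.63 ± 0.40, adjusted p = 0.188) and let-7a (-3.77 ± 1.55, adjusted p = 0.0646) did not pass. The median of the 8 was -3.57. These are fitted values after scaling and not shares of miRNA counts. By pooled counts, the share of let-7g by TEsR was 0.68 times that by TruSeq (exact interval 0.342 to 1.59, which reaches equality). For let-7i the ratio was 0.216 (0.178 to 0.264), the opposite direction to its fitted value. No member had a higher pooled share of miRNA counts by TEsR, so the call of let-7g depends on the scaling. In both fits let-7g had the highest value of the members tested and let-7i the second, and the difference between members was not tested.

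**Figure D3:**
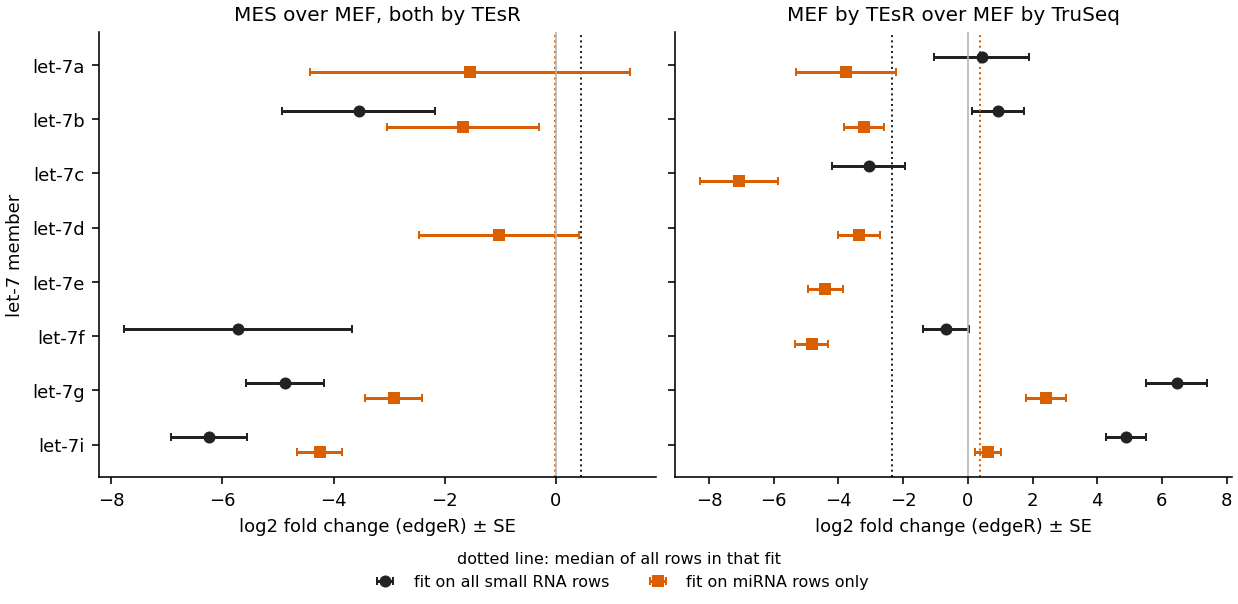
log2 fold change ± SE (edgeR) of each member in MES cells over MEFs by TEsR (left) and in MEFs by TEsR over TruSeq (right), for the fit on all small RNA rows (circles) and on miRNA rows alone (squares), with dotted lines at the median of all rows in each fit and no symbol where a member was not tested. On the left let-7i and let-7g are lower in both fits (-6.24 and -4.25, -4.87 and -2.92), and on the right they have the highest values in both (4.90 and 0.63, 6.45 and 2.41).

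The makeup of the family does not depend on either denominator, because it sets each member against the let-7 counts of the same library. Together let-7g and let-7i held 93.8%, 91.1%, 91.5% and 87.6% of let-7 counts in the MEF TEsR libraries mm S1, mm S2, pm S1 and pm S2, against 20.2% and 27.0% in TruSeq libraries 1 and 2. The 3 members with 2 gene copies, let-7a, let-7c and let-7f, held 1.62%, 3.16%, 1.85% and 10.7% by TEsR, against 52.8% and 48.0% by TruSeq. The remaining let-7b, let-7d and let-7e held 4.54%, 5.7%, 6.65% and 1.78% by TEsR, against 27.0% and 25.0% by TruSeq. None of these 3 shares overlapped between the methods, and the means were 91.0 ± 2.59% by TEsR (n = 4) and 23.6 ± 4.85% by TruSeq (n = 2) for let-7g with let-7i, 4.32 ± 4.28% and 50.4 ± 3.42% for the 2-copy members, and 4.66 ± 2.11% and 26.0 ± 1.43% for the rest (SD). The 3 shares make up all let-7 counts of a library, so a high share of let-7g with let-7i lowers the others. They are not separate results, and the makeup of other families was not compared.

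The single members followed the same split. The share of let-7i was 76.6% (exact 95% interval 73.7 to 79.3), 73.7%, 75.9% and 67.3% by TEsR, against 17.3% (12.8 to 22.6) and 26.6% (21.2 to 32.6) by TruSeq. That of let-7g was 17.3%, 17.4%, 15.6% and 20.3% by TEsR, against 2.82% and 0.403% by TruSeq. No member held more than 26.6% of let-7 counts by TruSeq, where let-7f (22.2% and 14.5%), let-7c (16.1% and 19.0%), let-7a (14.5% in both) and let-7b (13.7% and 8.87%) each took a sizeable part. In MES cells let-7g and let-7i gave 5 of 9 and 3 of 3 counts, too few to place between the methods.

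**Figure D4:**
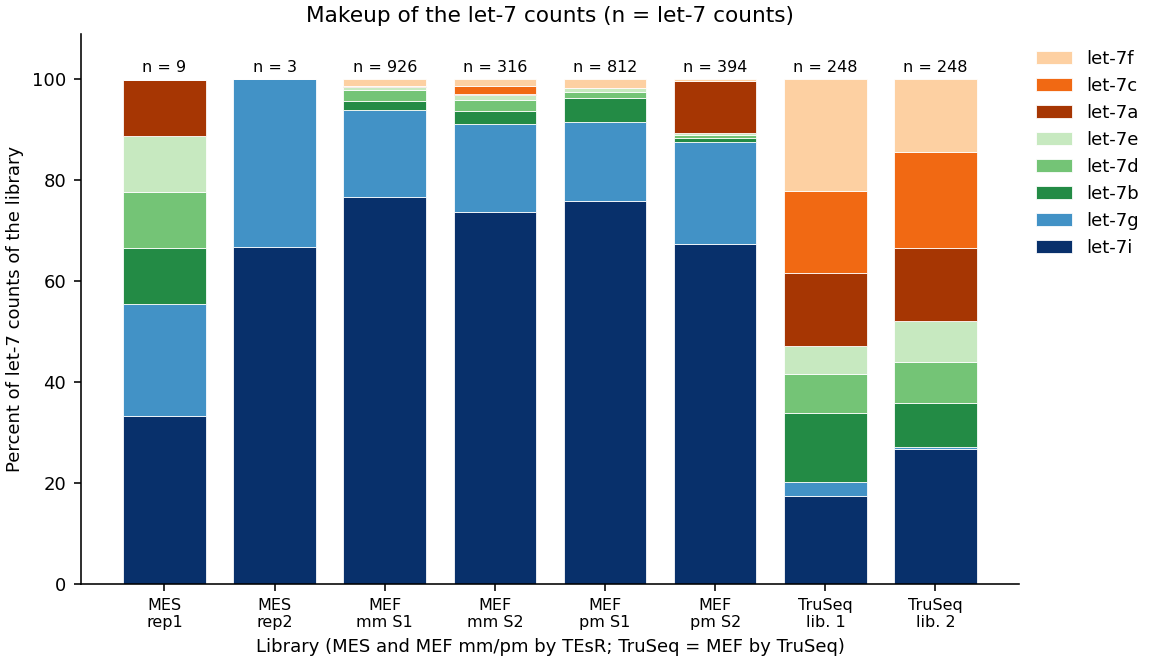
Percent of the let-7 counts of each library that fell on each member, with the number of let-7 counts above each bar; blue marks let-7g and let-7i, green let-7b, let-7d and let-7e, and orange let-7a, let-7c and let-7f. Blue fills 87.6% to 93.8% of the 4 MEF TEsR bars and 20.2% and 27.0% of the 2 TruSeq bars, while the MES bars rest on 9 and 3 counts.

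By gene copy, Mirlet7c-2, whose hairpin is shown above, had counts by TruSeq and none by TEsR. It had 0 counts in all 6 TEsR libraries, MES and MEF alike, and 33 and 42 counts by TruSeq, so that against a floor of 3 counts per library it was at least 5.12-fold lower by TEsR in MEFs in CPM. Its edgeR adjusted p with each copy as its own row was 2e-04, but it entered that test only through its TruSeq counts, so the direction was fixed by the filter. Its neighbour Mirlet7b (chr15:85707319-85707403), 621 bases downstream in the same transcript Lncppara, had 16, 8, 39 and 3 counts in MEFs by TEsR and 34 and 22 by TruSeq, with a log2 fold change of 0.93 ± 0.76 in the same fit (adjusted p = 0.258). The other copy, Mirlet7c-1 (chr16:77599657-77599750), in an intron of the non-coding gene Mir99ahg, had 5 counts in mm S2, 0 in the other TEsR libraries, and 7 and 5 by TruSeq.

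Mirlet7a-1 (chr13:48538179-48538272) lies with mmu-let-7f-1 (chr13:48537829-48537917) and Mirlet7d (chr13:48536012-48536114) on the minus strand in exons of the long non-coding RNA 6720427I07Rik, with gaps of 261 and 1714 bases between them. Its copy counts were 2, 0, 0 and 1 in MEFs by TEsR, against 28 and 31 by TruSeq, a log2 fold change of -3.29 ± 0.89 (edgeR adjusted p = 0.00336), and it too entered the test only through its TruSeq counts. For mmu-let-7f-1 the counts were 9, 4, 10 and 2 by TEsR, against 50 and 34 by TruSeq, and its value of -0.95 ± 0.64 did not pass (adjusted p = 0.171). Mirlet7d, at 21, 7, 9 and 2 against 19 and 20 counts, did not enter the test. The differences between these 3 hairpins were not tested. Mirlet7a-2 (chr9:41536716-41536811), in an intron of 3110039I08Rik, had 0, 1, 0 and 39 counts by TEsR, against 8 and 5 by TruSeq, and so gave 39 of the 40 let-7a counts of pm S2. Mirlet7f-2 (chrX:151912346-151912428), in an intron of Huwe1, had 4, 0, 5 and 0 counts by TEsR, against 5 and 2 by TruSeq. How reads of mature forms that occur in 2 hairpins were placed is not given in the sources used here, so the split between copies of let-7a, let-7c and let-7f is uncertain. The names of the TEsR columns hold a tag, q10, that those of the TruSeq columns lack and the labels do not explain, and its part in these values was not tested.

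Antisense rows overlap let-7 rows at 2 places. Gm25927, opposite mmu-let-7e (chr17:17830352-17830444, in an intron of Spaca6), had the same count as let-7e in all 8 libraries. Gm24111, opposite mmu-let-7f-1, had the same count in 7 libraries and 35 against 34 in TruSeq library 2. Reads there were counted on both rows, and sense and antisense cannot be told apart from the tables.

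The rows next to let-7 genes and the row with the let-7 seed were described beside them, with no test of the difference from let-7. In mammals miR-99, miR-100 and miR-125 genes share host transcripts with let-7a-2, let-7c-1 and let-7e. Mir99a, 656 bases from Mirlet7c-1, had 1 count in each MES library, 147, 61, 65 and 24 in MEFs by TEsR, and 3 and 5 by TruSeq. Mir125a, 367 bases from mmu-let-7e, had 13 and 9 counts in MES cells, 186, 76, 326 and 172 in MEFs by TEsR, and 1 and 5 by TruSeq. In MEFs by TEsR both were thus present in numbers where the let-7 gene beside them had at most 6 counts. Mir99b, 94 bases from mmu-let-7e, had 40 and 51 counts in MES cells, 187, 55, 261 and 113 in MEFs by TEsR, and 76 and 161 by TruSeq.

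In MES cells over MEFs, 2 of the 5 tested neighbours were lower, Mir99a (-4.91 ± 0.95, adjusted p = 0.000737) and Mir125a (-2.88 ± 0.58, adjusted p = 0.000994), with edgeR over all rows, where 32.1% of all rows and 55.4% of miRNA rows were lower. Mir99a, with 1 count in each MES library, could enter only through its MEF counts, so the filter fixed the direction of its call. Mir99b (-0.50 ± 0.51, adjusted p = 0.379), Mir100 (-0.63 ± 0.63, adjusted p = 0.369) and Mir125b-1 (-1.92 ± 1.04, adjusted p = 0.115) did not pass. On miRNA rows alone Mir99a was still lower (-3.03 ± 0.99, adjusted p = 0.0328), Mir125a missed the threshold (-0.88 ± 0.36, adjusted p = 0.0748) and Mir99b was higher (1.54 ± 0.28, adjusted p = 0.00191).

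By TEsR over TruSeq, 4 of the 5 were higher over all rows: Mir125a (7.74 ± 0.89, adjusted p = 3.82e-06), Mir99a (5.99 ± 0.94, adjusted p = 5.66e-05), Mir100 (5.10 ± 0.82, adjusted p = 6.67e-05) and Mir99b (2.22 ± 0.62, adjusted p = 0.00459). In the same fit 79.8% of miRNA rows were higher, so the count is near the background. Mir125a (1 and 5 counts by TruSeq), Mir99a (3 and 5) and Mir100 (3 and 3) could enter only through their TEsR counts. The direction of a called value was thus fixed by the filter for these rows. Mir125b-1 did not pass (0.25 ± 0.67, adjusted p = 0.727). On miRNA rows alone Mir125a stayed higher (3.55 ± 0.68, adjusted p = 0.00145), Mir99b (-2.12 ± 0.43, adjusted p = 0.00193) and Mir125b-1 (-4.0 ± 0.43, adjusted p = 5.91e-05) were lower, and Mir99a (adjusted p = 0.0549) and Mir100 (adjusted p = 0.141) did not pass. Mir98, which carries the let-7 seed 785 bases from Mirlet7f-2, had 0 counts in MES cells, 4, 5, 11 and 2 in MEFs by TEsR, and 1 in each TruSeq library, and did not enter the main fit over all rows. It entered that fit without either MES library, at fitted values that are no bound. Without TruSeq library 1 or 2 it entered at 4.2 and 3.68. With no filter on low counts its value by TEsR over TruSeq was 4.09 ± 1.17 (adjusted p = 0.00735), in a fit that called 155 of 806 rows higher (19.2%) and 235 lower (29.2%), and 131 of 394 miRNA rows higher (33.2%) and 17 lower (4.31%). In MES cells over MEFs it did not pass (-5.18 ± 2.29, adjusted p = 0.0551). Mir125b-2 had 0 counts in MES cells, between 0 and 15 in MEFs by TEsR and 4 and 6 by TruSeq. Without the filter it was lower in MES cells (-5.58 ± 2.23, adjusted p = 0.0333), a fitted value that is no bound, and did not pass by TEsR over TruSeq (2.45 ± 1.21, adjusted p = 0.112). Mir202 was at 0 in every library.

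**Figure D5:**
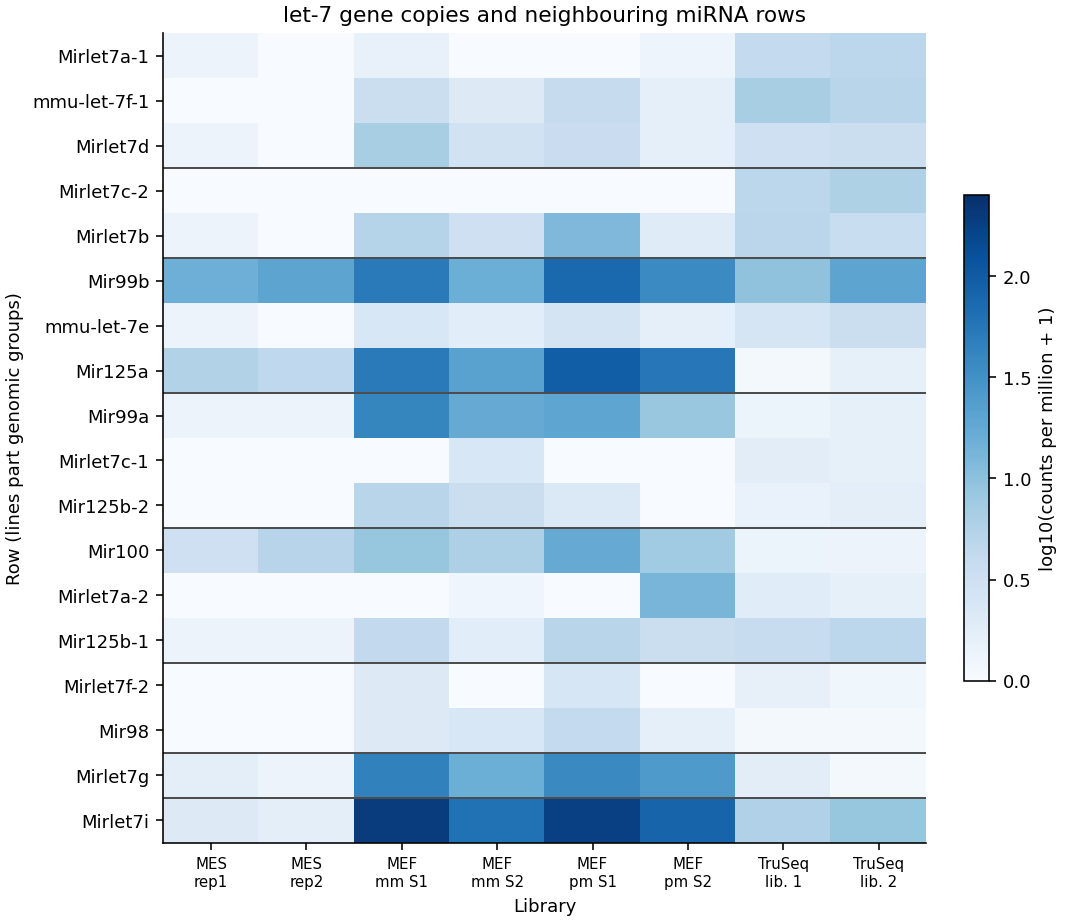
Level of each let-7 gene copy and neighbouring miRNA row (rows, parted by lines into genomic groups) in each library (columns), as log10(CPM + 1). Mirlet7i and Mirlet7g are darkest in the 4 MEF TEsR columns, Mirlet7c-2 is empty in all 6 TEsR columns and present in both TruSeq columns, and Mirlet7a-2 stands out in the single column MEF pm S2.

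The rows most like the let-7 sum in level over the 8 libraries were found among the 121 clear miRNA rows with at least 10 counts in 2 or more libraries. Likeness was the root mean square difference of log2(CPM + 1) profiles, each centred on its own mean. The closest was Mir143, a miRNA abundant in mesenchymal and smooth muscle cells, at 0.538 log2 units, with 3.23 and 0.374 CPM in MES cells, 98.7, 30.8, 168 and 121 CPM in MEFs by TEsR, and 19.6 and 11.5 CPM by TruSeq. Next came Mir31 (0.786), Mir214 (0.899), Mir29a (0.948) and Mir345 (0.978), of which Mir143, Mir31 and Mir214 are on the list of fibroblast and mesenchyme markers. Of the neighbours, Mir99a ranked 10 of 121 (1.262) and Mir125a 37 (1.88). All points share the depth and the miRNA share of their libraries.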

How the data were processed

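Small RNA of MES cells and MEFs was measured in 8 libraries. The authors deposited whole-number read counts for each annotated small RNA, not normalized, per the file headers. TEsR followed a ribosomal RNA removal step and uses linker ligation, cap removal and hybridisation capture, with no size selection, per the labels' protocols. The submitters' processing notes name BWA 0.7.12, bedtools 2.25.0, SAMtools 1.2.1 and cutadapt, with the mm10 build. Settings and strand use are not stated there. Columns were assigned to groups by name, and replicate samples are not stated to be separate cultures, so p-values measure the spread between these libraries, which may be technical. Gene copies were summed per member. Row types came from GENCODE M21 (5453 of 5518 rows found, 5445 at the same coordinates). Tests used edgeR 4.0.16 (quasi-likelihood, TMM, filterByExpr with a minimum count of 10, Benjamini-Hochberg over all rows, threshold 0.05) in R 4.3.3. A check on simulated data gave every row the same fixed spread, not that of these libraries, and so cannot vouch for these calls. An SE is the log2 fold change over the root of the F statistic. Alternatives were DESeq2 1.42.0, library size alone, no filter, miRNA rows alone, overlapping rows with equal counts once, separate gene copies, a replicate block, and each library left out. The 2 tables were fitted together, from raw counts. The genes named are all members and copies, their cluster neighbours, Mir98 and Mir202, and the 5 most alike rows. Members and lists were chosen with earlier results of these data known.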

Additional observations from a re-analysis of the deposited data

Results flagged for a closer look

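In the MEF TEsR group, the members, their sum, the copies and 7 neighbouring miRNA rows were searched for a library far from the other 3, by the gap to its nearest neighbour over the whole range (beyond Dixon's 95% critical value for 4 values). Of 34 quantities 6 passed. Counts of 0 in 3 of 4 libraries give a gap of 1.0 of the range whatever the remaining count is. Members with 1 gene copy also appear again as that copy, so the number that passed cannot be set against a chance rate. The 6 come from 2 gene copies and none from a neighbouring row. The library pm S2 stood apart for let-7a, with a gap of 0.957 of the range in CPM and 0.933 among miRNA counts, and for the copy Mirlet7a-2, with 0.978 in CPM, on 39 counts against 0, 1 and 0. The library mm S2 stood apart for let-7c, with a gap of 1.0 of the range on both scales, and for the copy Mirlet7c-1, likewise 1.0, on 5 counts against 0 in each of the other 3.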

How the results depend on the processing

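A replicate block, chosen after seeing the data, used the numbers ending the TEsR column names. MES and MEF libraries share only a number (correlation of same-numbered deviations -0.06 to 0.02), and with the block 117 rows were higher and 78 lower in MES cells, with 4 members lower. TruSeq columns carry no number. Of the values that answer a comparison, 99 kept their side under an alternative, 22 moved and 1 reversed. On miRNA rows alone, rows called higher and lower numbered 41 and 35 in MES cells over MEFs, and 50 and 42 by TEsR over TruSeq; fewer rows were tested there (136). Members lower in MES cells numbered 2 with DESeq2 and 2 on miRNA rows alone, and 2 to 4 with each library left out. By TEsR over TruSeq, members higher numbered 1 on miRNA rows alone, and 2 to 3 with a library left out. Members lower numbered 0 with DESeq2 (2 of 6 had an unadjusted p under 0.05, both higher), 0 with no filter (let-7c alone had an unadjusted p under 0.05 among lower values), 5 on miRNA rows alone, and 0 to 2 with a library left out. The filter fixed the direction of the calls of let-7c, let-7e and let-7f on miRNA rows alone. It did so too for each lower call with a library left out. With all counts as denominator, the let-7 share was 0.000218% in MES cells, 0.0171% in MEFs by TEsR and 0.00285% by TruSeq; without the top miRNA row it was 0.57% in MEFs by TEsR. The log2 ratio of the let-7 sum moved to -6.3 from -2.12 in MES cells over MEFs, and reversed to 2.58 from -3.93 by TEsR over TruSeq, when all counts replaced miRNA counts. With each library left out these ratios were -3.08 to -1.55 and -4.24 to -3.55, and the shares 0.0463% to 0.134%, 0.338% to 0.436% and 4.59% to 7.37%. By TEsR over TruSeq, let-7a reversed to -0.34 by library size, -3.77 on miRNA rows alone and -3.12 without pm S2 (-3.12 to 0.91 over the libraries left out), and let-7b to -3.22 on miRNA rows alone; beyond the libraries named, the cause was not tested. The 12 counts of MES cells limit every MES value.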
